A study of Mus musculus with 20 samples.

Results

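Fcer1g and Tyrobp, a pair of genes for signalling adaptors, were followed across the cells of 4 single-cell RNA libraries, as 2 of the 27916 genes counted in all 4. They were chosen as columns of the count tables, with the instruction to set their level in CD8 T cells against that in macrophages of the same library and to check for free RNA. Levels of both genes in earlier looks at these data led to that choice, so the difference between T cells and macrophages is given here as a description with no test.

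Fcer1g encodes the Fc receptor common gamma chain and Tyrobp encodes DAP12. Each is a small transmembrane protein with an immunoreceptor tyrosine-based activation motif (ITAM), a stretch of the tail that is phosphorylated when a partnered receptor binds its ligand and that then recruits the kinases SYK or ZAP70. Fcer1g serves Fc receptors of macrophages and mast cells, Tyrobp serves TREM2 and activating natural killer (NK) cell receptors, and conventional CD8 T cells signal mainly through the CD3 chains and the related adaptor CD247.

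Tumour-infiltrating CD8+ T cells carrying OT-I, a T cell receptor that recognises an ovalbumin peptide, were collected on day 8 after transfer into mice bearing B16-OVA, a mouse melanoma line engineered to express ovalbumin. The 4 groups were Tet2 knockout (Tet2-/- crossed to OT-I) with anti-PD-L1, wild-type OT-I with anti-PD-L1, untreated Tet2 knockout and untreated wild-type OT-I. Every group was 1 library, so there is no replicate check, no p-value is given, and intervals cover counting error only. Of the 20 samples in the series, the 8 RNA and 8 ATAC samples were not analysed here. The labels give no animal numbers per library, no Cre or promoter, and no marker that separates transferred cells from CD8 T cells of the host. Tet2 measured 18.1 and 23.1 CPM in T cells of the knockout libraries with and without anti-PD-L1, against 15.7 and 14.6 CPM in the wild-type libraries, so it was not lower in the knockout. The labels do not give the deleted part, and a 3′ count outside it would not check the genotype.

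CD8 T cells were gated by at least 3 UMIs (unique molecular identifiers, each marking 1 captured molecule) of Cd3d, Cd3e and Cd3g together and fewer than 5 of C1qa, C1qb, C1qc and Lyz2 together. The gate held 1030, 1320, 1560 and 1137 cells of knockout with anti-PD-L1, wild-type with anti-PD-L1, untreated knockout and untreated wild-type, 5047 of 7398 kept cells in all. Macrophages, with at least 20 UMIs of the same 4 genes and none of CD3, numbered 137, 121, 297 and 162 in that order of libraries. Melanoma cells, with at least 10 UMIs of Mlana, Pmel, Dct and Tyrp1, numbered 32, 49, 146 and 773. The T cell label held against its markers: 82.4% to 95.8% of gated cells had a Cd8a UMI and 0.088% to 0.971% a Cd4 UMI, and the 10 macrophage markers summed to 44.6 to 84.8 CPM (a gene's UMIs scaled to a common total of UMIs per class and library) in T cells against 41173 to 46893 CPM in macrophages. Gated T cells of the 4 libraries held 8077237, 8285984, 8147497 and 5011764 UMIs, and libraries shared 1 to 10 cell barcodes per pair. Of the other cells the gate could hold, the 5 NK markers summed to 10.7 to 18.9 CPM in T cells, with Ncr1 at 0 in 3 libraries. Most of that sum was Eomes, at 6.75 to 15.3 CPM. The 6 mast cell or basophil markers summed to 0 to 0.965 CPM. The 6 gamma-delta markers summed to 94.4 to 256 CPM, most of it Trdc, and the 7 melanoma markers to 96.2 to 524 CPM, highest in untreated wild-type, where melanoma cells were also the most numerous. The part of these cells in the adaptor levels was not tested.

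In the mm10-equivalent build GRCm38.p6 of RefSeq, Fcer1g spans 171229572 to 171234349 of chromosome 1 on the minus strand and Tyrobp spans 30413782 to 30417582 of chromosome 7. The RefSeq promoter table matched 1 of the 2 genes, Fcer1g. For that reason the 250 bases before the Fcer1g start, chr1:171234350-171234599 on the minus strand, are shown. Capitals mark AGGAAG, a core of the kind bound by ETS-family factors such as PU.1, found once and on the gene's own strand. On either strand, 9686 of 32851 promoter windows of that length (29.5%) held the same letters.
Fcer1g: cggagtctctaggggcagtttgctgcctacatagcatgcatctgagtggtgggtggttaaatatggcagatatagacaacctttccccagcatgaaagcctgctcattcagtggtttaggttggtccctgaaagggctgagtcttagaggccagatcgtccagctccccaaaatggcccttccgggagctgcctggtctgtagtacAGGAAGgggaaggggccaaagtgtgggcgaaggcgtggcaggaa

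Fcer1g was present in CD8 T cells of every library at a small part of its macrophage level, and its T cell level was highest in the wild-type library with anti-PD-L1. Gated T cells held 242 Fcer1g UMIs in knockout with anti-PD-L1, 746 in treated wild-type, 178 in untreated knockout and 189 in untreated wild-type. As levels these were 30.0 CPM (95% Poisson interval 26.3 to 34.0), 90.0 CPM (83.7 to 96.7), 21.8 CPM (18.8 to 25.3) and 37.7 CPM (32.5 to 43.5). In that order of levels the libraries run wild-type with anti-PD-L1, untreated wild-type, knockout with anti-PD-L1 and untreated knockout. The closest neighbours, knockout with anti-PD-L1 and untreated wild-type, had a fold of 0.794 (0.654 to 0.966). Each step in the order thus exceeded the counting error of UMIs. Such an interval treats UMIs as independent and leaves out the spread between cells. By cells with an Fcer1g UMI the closest neighbours were not separated, at 9.42% (7.70 to 11.4) and 8.18% (6.65 to 9.93). After thinning to 2600 UMIs per cell the shares were 5.26% and 5.42%, so the order of this pair is not settled.

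Tyrobp had 74, 65, 103 and 59 UMIs in T cells, in the same order of libraries, or 9.16, 7.84, 12.6 and 11.8 CPM. Neighbours in the order of Tyrobp levels did not differ beyond counting error, with folds of 1.07 (0.772 to 1.51) for untreated knockout over untreated wild-type, 0.778 (0.545 to 1.11) for knockout with anti-PD-L1 over untreated wild-type and 1.17 (0.826 to 1.66) for knockout over wild-type with anti-PD-L1. Further apart in that order, anti-PD-L1 over untreated gave Tyrobp folds of 0.725 (0.530 to 0.986) in knockout and 0.666 (0.461 to 0.965) in wild-type. The Tyrobp mean of 10.4 CPM lay under the 20 CPM taken here as the floor for counting a gene. The Fcer1g mean of 44.9 CPM lay above it.

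Macrophages held both adaptors in every cell. Fcer1g measured 6172, 5470, 6208 and 5704 CPM in macrophages of knockout with anti-PD-L1, wild-type with anti-PD-L1, untreated knockout and untreated wild-type. Tyrobp measured 3305, 3763, 3599 and 3194 CPM there. For each gene the macrophage levels lay close together: between any pair of compared libraries the log2 fold of macrophage levels stayed within -0.19 to 0.24. On the log2 scale, Fcer1g in T cells stood at -7.69, -5.92, -8.15 and -7.24 relative to macrophages and Tyrobp at -8.49, -8.91, -8.15 and -8.08. Between 25.9% and 27.2% of all genes tested were at least 1.5-fold lower in T cells than in macrophages, 27.2%, 26.8%, 26.4% and 25.9% by library, and since the genes were chosen on this contrast nothing is read from their place among them.

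**Figure D1:**
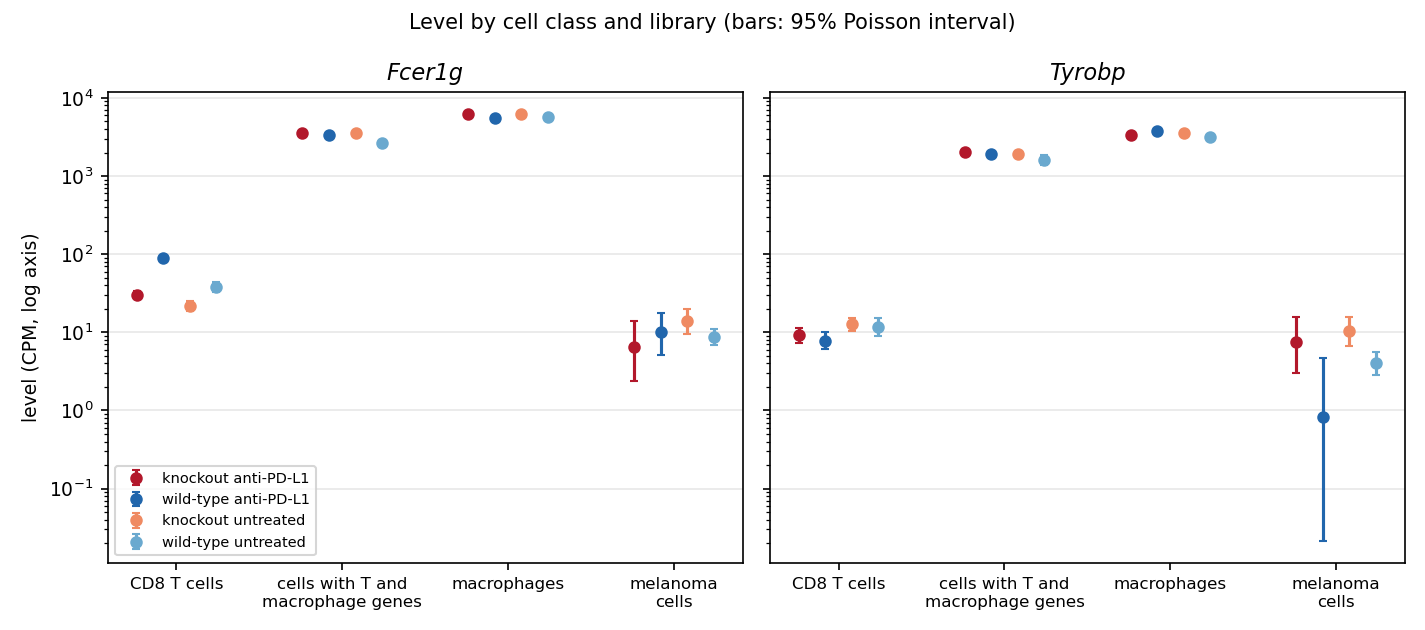
Level of Fcer1g (left) and Tyrobp (right) in CPM on a log axis, by cell class, with 1 point per library and bars for the 95% Poisson interval. Macrophages sit between 3194 and 6208 CPM for both genes, while the T cell points of Fcer1g spread between 21.8 and 90.0 CPM and those of Tyrobp between 7.84 and 12.6 CPM.

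Melanoma cells, which should lack both adaptors, gave the background. Fcer1g measured 6.44, 9.99, 14.01 and 8.72 CPM in melanoma cells of the 4 libraries in the order above. The level in T cells was 4.65-fold (2.11 to 12.8), 9.01-fold (5.13 to 17.5), 1.56-fold (1.06 to 2.36) and 4.33-fold (3.29 to 5.75) that of melanoma cells. Per cell, T cells held 0.235, 0.565, 0.114 and 0.166 Fcer1g UMIs and melanoma cells 0.188, 0.245, 0.212 and 0.0944. By this count, which does not divide by the deeper total of melanoma cells, untreated knockout T cells were below the melanoma cells and those of knockout with anti-PD-L1 only slightly above them. Tyrobp in T cells was 1.22-fold, 9.42-fold (1.63 to 378), 1.22-fold and 2.90-fold the melanoma level, and the wide interval rests on 1 Tyrobp UMI in melanoma cells of wild-type with anti-PD-L1.

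By cells, an Fcer1g UMI was found in 9.42%, 13.2%, 5.90% and 8.18% of T cells of the 4 libraries, against 18.8%, 14.3%, 15.8% and 8.54% of melanoma cells. Melanoma cells were far deeper, with median UMIs of 27392.5, 23667, 12489 and 10087, against 6806, 5437.5, 4449.5 and 3791 in T cells. After every cell was thinned to 2600 UMIs, which left out 23, 78, 145 and 215 shallower T cells, the Fcer1g shares were 5.26%, 9.42%, 4.03% and 5.42% of T cells. At that depth 0 of 32, 0 of 49, 3 of 144 (2.08%) and 9 of 763 (1.18%) melanoma cells had an Fcer1g UMI. Thinned Tyrobp shares were 1.79%, 1.85%, 1.98% and 1.95% of T cells, within a narrow band in all 4 libraries.

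The Fcer1g UMIs were concentrated in a minority of T cells. Cells with at least 3 Fcer1g UMIs made up 2.82%, 6.59%, 1.22% and 2.29% of T cells, or 29, 87, 19 and 26 cells, in knockout with anti-PD-L1, wild-type with anti-PD-L1, untreated knockout and untreated wild-type. They held 66.5%, 85.9%, 53.4% and 58.2% of all T cell Fcer1g UMIs. The highest single cells had 13, 37, 19 and 9 Fcer1g UMIs, and 3, 17, 1 and 0 cells had 11 or more. After thinning, 0.596%, 3.30%, 0.636% and 1.08% of T cells had at least 3 Fcer1g UMIs, against 0 melanoma cells in every library. With so few melanoma cells the upper 95% bounds were 10.9%, 7.25%, 2.53% and 0.482%, so the T cell share exceeded the bound in untreated wild-type alone.

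**Figure D2:**
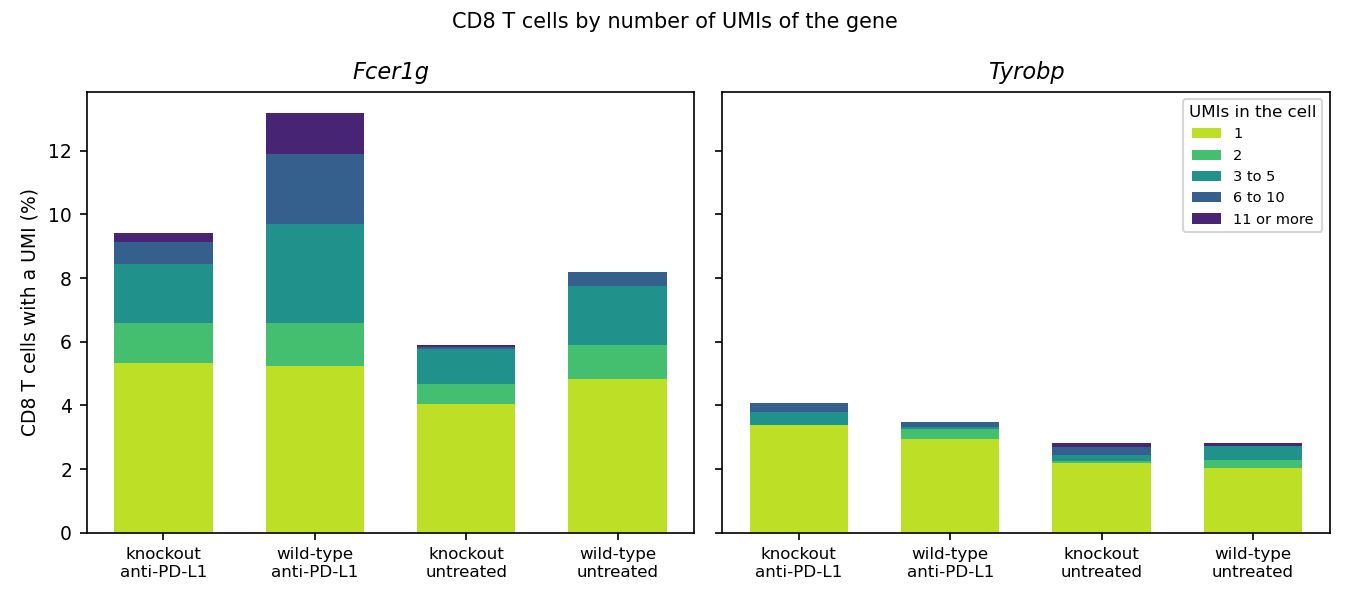
Percent of CD8 T cells with a UMI of Fcer1g (left) or Tyrobp (right) in each library, stacked by the number of UMIs in the cell. The dark upper segments, cells with 6 or more Fcer1g UMIs, are widest in wild-type with anti-PD-L1, and the Tyrobp columns stay between 2.81% and 4.08%.

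Most of these cells had no Tyrobp UMI. T cells with at least 3 Fcer1g UMIs and no Tyrobp UMI numbered 22, 80, 12 and 17, or 2.14%, 6.06%, 0.769% and 1.495% of T cells. Every macrophage held a Tyrobp UMI, at a median of 31, 21, 16 and 10 per cell, so macrophages hold no such cells by their level alone. Of the 22, 80, 12 and 17 T cells, 15, 69, 11 and 15 held no UMI of C1qa, C1qb, C1qc or Lyz2, and 22, 79, 10 and 17 held a UMI of Cd8a or Cd8b1. A class II UMI (H2-Aa, H2-Ab1, H2-Eb1 or Cd74, genes of antigen-presenting cells) was found in 27.3%, 32.5%, 16.7% and 29.4% of them, against 29.1%, 21.1%, 25.7% and 30.2% of all T cells. Melanoma cells of these libraries also held class II UMIs, with Cd74 at 2997, 1385, 2159 and 653 CPM. Macrophages held Cd74 at 18551, 14705, 18509 and 10643 CPM. A single class II UMI thus does not tell its source. A UMI of the NK cell markers was found in 4.55%, 11.2%, 25% and 5.88% of them, or 1, 9, 3 and 1 cells, against 6.80%, 8.86%, 3.85% and 5.19% of all T cells. Most NK marker UMIs of T cells were of Eomes in every library, so such a UMI does not by itself mark an NK cell.

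The check for free RNA set each adaptor against other macrophage genes. A single source of macrophage RNA keeps its genes in 1 ratio, so Fcer1g UMIs per Tyrobp UMI were compared between T cells and macrophages of the same library. T cells held 3.27, 11.5, 1.73 and 3.20 Fcer1g UMIs per Tyrobp UMI, against 1.87, 1.45, 1.73 and 1.79 in macrophages. The T cell ratio was 1.75 times (1.34 to 2.31) the macrophage ratio in knockout with anti-PD-L1, 7.90 times (6.09 to 10.4) in treated wild-type, 1.00 times (0.78 to 1.29) in untreated knockout and 1.79 times (1.32 to 2.46) in untreated wild-type. In untreated knockout the T cells thus held the adaptors in the macrophage proportion. Cells with both T cell and macrophage genes, which the gate leaves out, had 0.94, 1.21, 1.06 and 0.91 times the macrophage ratio.

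Gated cells with class II UMIs bear on the untreated libraries. T cells with at least 20 class II UMIs numbered 1, 3, 15 and 15 and held 0%, 13.8%, 48.5% and 37.3% of T cell Tyrobp UMIs, against 0.413%, 5.23%, 21.3% and 18.5% of Fcer1g UMIs. Among T cells with no class II UMI, a choice added after seeing the data, the ratio of Fcer1g to Tyrobp was 1.55 (1.15 to 2.12), 7.61 (5.58 to 10.6), 2.72 (1.72 to 4.48) and 4.08 (2.31 to 7.75) times that of macrophages. With no UMI of the 12 macrophage reference genes it was 2.06, 6.58, 3.21 and 2.32 times. The other barcode listing of the tables gave 2.12, 6.34, 0.86 and 1.56 times.

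**Figure D3:**
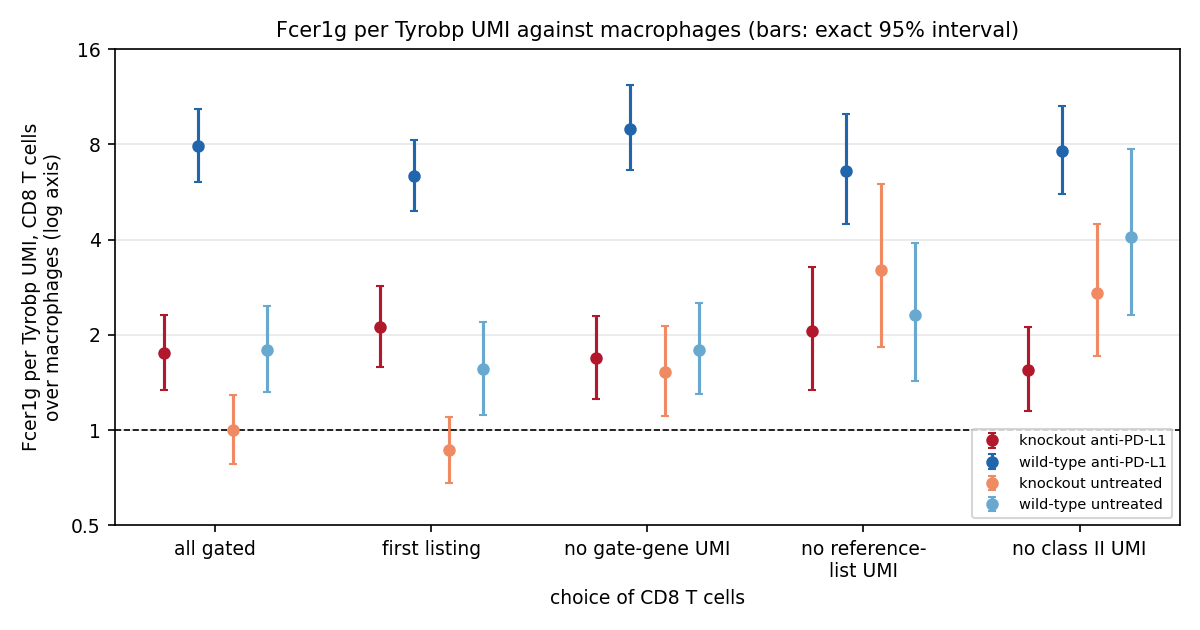
Fcer1g UMIs per Tyrobp UMI in CD8 T cells divided by the same ratio in macrophages, on a log axis, for 5 choices of T cells, with 1 point per library, exact 95% intervals, and a dashed line at 1. Wild-type with anti-PD-L1 is the highest point under each choice, and untreated knockout lies at 1.00 for all gated cells and at 2.72 for cells with no class II UMI.

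Against the summed macrophage reference list the result depended on 2 of its genes. With all 12 genes, Fcer1g stood at 0.84, 2.57, 0.51 and 0.85 times the macrophage proportion and Tyrobp at 0.48, 0.33, 0.51 and 0.47 times. T cells held Ctss at 80.5 to 116 CPM and Apoe at 11.8 to 50.1 CPM, the only reference genes past the floor in T cells. Without Apoe and Ctss, Fcer1g stood at 1.72 (1.41 to 2.10), 5.09 (4.32 to 6.03), 1.14 (0.92 to 1.41) and 2.39 (1.87 to 3.07) times, and Tyrobp at 0.98, 0.65 (0.48 to 0.86), 1.14 (0.88 to 1.46) and 1.33 (0.95 to 1.86) times. By this measure Fcer1g was above the macrophage proportion, beyond counting error, in 3 libraries, and Tyrobp in none. At the edge of the gate, the 10 cells inside it with 3 to 4 UMIs of its 4 macrophage genes averaged 261 CPM of Fcer1g and 87.1 CPM of Tyrobp, and the 6 cells outside with 5 to 6 UMIs averaged 563 and 356 CPM.

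Tyrobp UMIs in T cells lay in few cells. T cells with at least 2 Tyrobp UMIs numbered 7, 7, 10 and 9 and held 52.7%, 40.0%, 67.0% and 61.0% of T cell Tyrobp UMIs. A UMI of Cd8a or Cd8b1 was present in 4, 6, 9 and 5 of them, against 96.5% to 98.7% of all gated T cells. A class II UMI was present in 0, 2, 10 and 9 of them and an NK marker UMI in 4, 1, 2 and 2. All 10 such cells of untreated knockout and all 9 of untreated wild-type thus also held class II UMIs, while those of knockout with anti-PD-L1 held none. An NK marker UMI was most often of Eomes in T cells as a whole and does not by itself mark an NK cell. Whether these cells were of other types, and their part in the Tyrobp level, was not tested.

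Knockout T cells had less Fcer1g than wild-type T cells, most clearly with anti-PD-L1. With anti-PD-L1, Fcer1g was 30.0 CPM in knockout and 90.0 CPM in wild-type T cells, a log2 fold of -1.59 (-1.80 to -1.38). Without treatment it was 21.8 CPM in knockout and 37.7 CPM in wild-type, a log2 fold of -0.79 (-1.09 to -0.48). Both exceed 1.5-fold, as did 1.7% of the 4655 genes past the floor in the lower direction with anti-PD-L1 (0.902% were higher) and 6.7% without treatment (7.67% were higher). The median gene moved by 0.09 and -0.10. Over 13 other settings the log2 folds ran between -1.73 and -1.30 with anti-PD-L1 and between -1.26 and -0.51 without treatment, where the smallest is under 1.5-fold. Tyrobp differed by 0.22 (-0.28 to 0.73) and 0.10 (-0.37 to 0.59), intervals that include 0.

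Anti-PD-L1 went with more Fcer1g in wild-type T cells. There Fcer1g was 90.0 CPM with anti-PD-L1 and 37.7 CPM without, a log2 fold of 1.26 (1.02 to 1.49), where 11.1% of genes were at least 1.5-fold higher and 20.3% lower. With edgeR TMM factors, which moved the median gene of that comparison by 0.17, the Fcer1g log2 fold was 1.42, and the split of genes turned from 517 higher and 943 lower to 718 higher and 536 lower. In knockout T cells Fcer1g was 30.0 CPM with anti-PD-L1 and 21.8 CPM without, a log2 fold of 0.46 (0.17 to 0.74), under 1.5-fold, where 3.01% of genes were at least 1.5-fold higher and 1.48% lower. The fold between genotypes was 0.80 lower on the log2 scale with anti-PD-L1 than without, a difference that was not tested. For the knockout comparison without treatment, 357 genes were higher and 312 lower, against 442 and 201 with TMM factors.

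Tyrobp went the other way, with log2 folds of -0.46 (-0.92 to -0.02) in knockout and -0.59 (-1.12 to -0.05) in wild-type for anti-PD-L1 over untreated. Among T cells with no class II UMI these were 1.49 and 0.80, so the direction turned round without the cells that held class II UMIs. In bulk sums of cells, fewer Fcer1g-positive cells and less Fcer1g per cell cannot be told apart from the CPM alone; the counts of cells above show that both the share of cells with at least 3 UMIs and the highest counts per cell were greatest in wild-type with anti-PD-L1.

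T cells with Fcer1g were compared with T cells without it. Those with at least 2 Fcer1g UMIs (42, 105, 29 and 38 cells) were set against those with none (933, 1146, 1468 and 1044 cells), and genes were ranked by their lowest ratio over the 4 libraries. The 10 leading genes were Gzmc, Gzmf, Serpinb9b, Klra3, Spp1, Lat2, Anxa1, AA467197, 2310031A07Rik and Napsa. Of these 10, 8 were also among the leading 10 when only cells with no Tyrobp UMI were used. That choice kept 35, 96, 19 and 25 of the same cells and the same cells with none, so much of this overlap was built in. Since the cells were chosen by a count in the same libraries, these are descriptions with no test.

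Antigen-presenting genes were also higher in the summed UMIs of these cells in 3 libraries, by more than most of the leading genes. A minority of the cells was rich in them. At least 20 class II UMIs were held by 0, 2, 6 and 8 of the 42, 105, 29 and 38 cells, with up to 686 in 1 cell of wild-type with anti-PD-L1. Among all T cells 1 of 1030, 3 of 1320, 15 of 1560 and 15 of 1137 held as many. In the untreated libraries such cells were thus a far larger part of Fcer1g-positive cells than of all T cells. No class II UMI was found in 73.8%, 69.5%, 62.1% and 44.7% of them, against 70.9%, 78.9%, 74.3% and 69.8% of all T cells. H2-Aa, a class II chain, had ratios of 1.09, 27.4, 45.4 and 21.2 and Cd74, the class II invariant chain, had 0.29, 11.5, 48.7 and 9.08. In untreated knockout Ctss had a ratio of 7.06 and Apoe 4.81. Among cells with no Tyrobp UMI the H2-Aa ratios were 1.28, 2.25, 0.84 and 0.71 and the Cd74 ratios 0.17, 0.98, 0.13 and 0.09.

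Gzmc, a granzyme of cytotoxic lymphocytes, was 223 CPM in cells with at least 2 Fcer1g UMIs and 41.9 CPM in cells with none in knockout with anti-PD-L1, a ratio of 5.33. In wild-type with anti-PD-L1 the levels were 812 and 50.6 CPM, a ratio of 16.1. Untreated wild-type gave 2937 and 207 CPM, a ratio of 14.2, and untreated knockout gave a ratio of 4.14 on 10 Gzmc UMIs. Gzmc was thus higher in Fcer1g-positive cells of all 4 libraries. By cells, 31.0%, 39.0%, 20.7% and 47.4% of Fcer1g-positive cells had a Gzmc UMI, against 6.11%, 6.72%, 2.93% and 8.91% of cells with no Fcer1g UMI. In untreated knockout with no class II UMI, Gzmc rests on 1 UMI, with a log2 fold of 1.01 (-4.33 to 3.57).

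Gzmf, a second granzyme of the same gene cluster, had ratios of 5.46, 19.2, 4.05 and 9.89, but on 12, 185, 2 and 91 UMIs, and 1 cell held 51.7% of the Gzmf UMIs in untreated wild-type. With no class II UMI its log2 fold there was -0.22. Serpinb9b, a serpin related to the granzyme B inhibitor Serpinb9, had ratios of 5.16, 3.38, 3.97 and 5.55. Klra3, an inhibitory Ly49 receptor, had 2.40, 4.31, 3.79 and 2.19, on 21, 94, 4 and 5 UMIs. Lat2, an adaptor that links ITAM receptors to downstream signalling, had 1.96, 2.60, 3.52 and 4.27. Havcr2, the inhibitory receptor TIM-3, had log2 folds of 0.78, 1.03, 1.18 and 1.77.

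Some T cell state genes were lower in Fcer1g-positive cells. Tcf7, a transcription factor of memory and stem-like T cells, had log2 folds of -0.37 (-1.39 to 0.50), -2.09, -1.94 and -3.93. Slamf6 had -0.85 (-2.32 to 0.29), -3.92, -1.59 and -4.15. In knockout with anti-PD-L1 both intervals thus included 0. Il7r, a survival receptor of the same list, had ratios of 0.58, 0.90, 0.87 and 0.82. Tcf7 and Slamf6 were lowest against cells without Fcer1g in untreated wild-type, where each rests on 1 UMI. Genes of T cell receptor signalling varied: Cd8a had log2 folds of -0.28, -0.06, -0.05 and -0.09 and Zap70 had -0.26, -0.16, -0.19 and 0.38. Cd3g had ratios of 1.19, 1.33, 1.22 and 1.53, and Cd247 had 0.73, 1.35, 0.94 and 0.43.

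**Figure D4:**
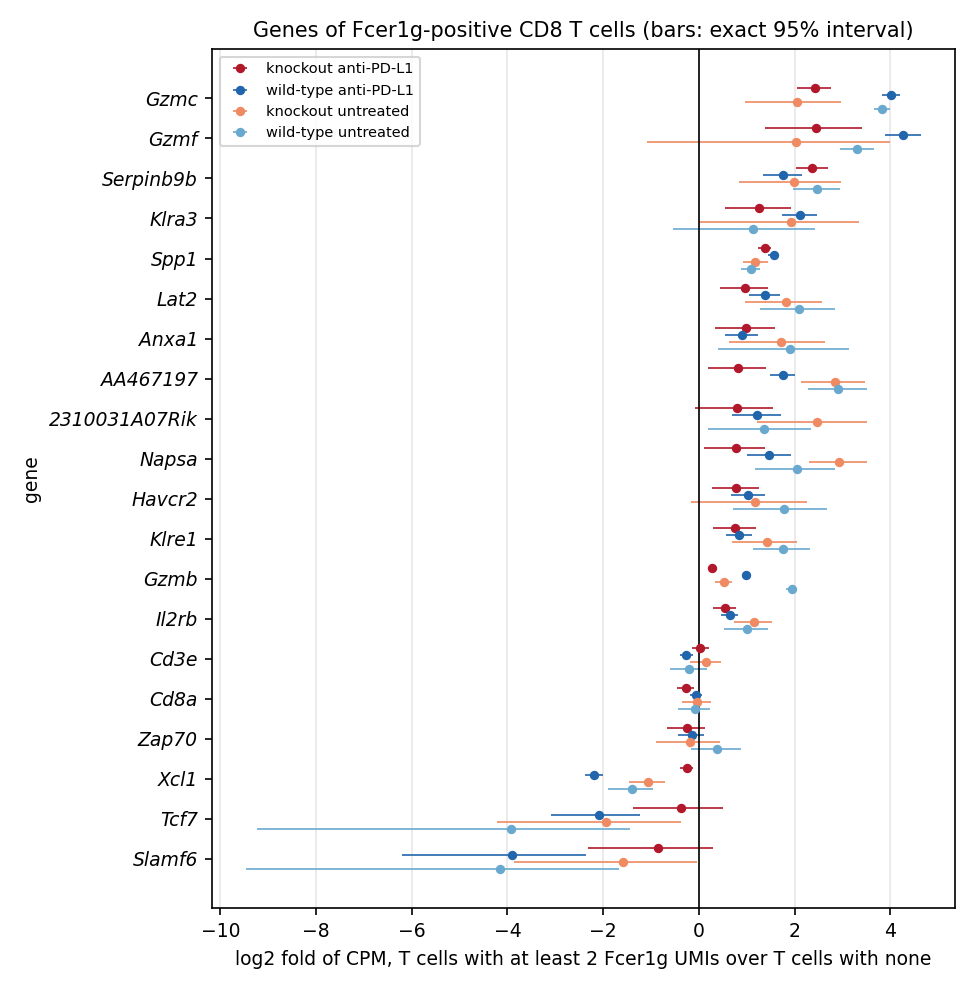
Log2 fold of CPM in CD8 T cells with at least 2 Fcer1g UMIs over those with none, for 20 genes, with 1 point per library and exact 95% intervals. Gzmc and Serpinb9b lie right of 0 in all 4 libraries, Cd8a lies near 0, and Tcf7 and Slamf6 lie left of 0.

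T cells were also split by Gzmc, Tcf7 and genes of dividing cells. For Gzmc and Tcf7 this split restates the comparison above in the same cells and is no separate observation. T cells with a Gzmc UMI held Fcer1g at 95.5, 335, 84.7 and 130 CPM, against 24.0, 55.3, 19.7 and 25.7 CPM in T cells without one. T cells with a Tcf7 UMI held less Fcer1g, with log2 folds of -0.57, -2.75, -1.06 and -2.13. Dividing cells, marked by Mki67 or Top2a, had log2 folds of -0.61, 0.08 (-0.13 to 0.29), -1.32 and -1.26 for Fcer1g, so the interval included 0 in wild-type with anti-PD-L1 and lay below 0 in the other libraries. For Tyrobp, cells with a Gzmc UMI over those without had log2 folds of -0.04, 0.67, 3.22 (2.50 to 3.88) and 1.75 (0.86 to 2.58), and cells with a Tcf7 UMI had 2.01, -0.95, -2.03 and -1.93. Tyrobp thus had the direction of Fcer1g in both untreated libraries, and the opposite direction for Tcf7 in knockout with anti-PD-L1. In untreated knockout and untreated wild-type, cells with a Gzmc UMI held only 25 and 18 Tyrobp UMIs. There 10 and 9 T cells, all with class II UMIs, held 67.0% and 61.0% of the Tyrobp UMIs. Their part in these folds was not tested.

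Receptors that use Fcer1g were low in the T cells. Of 13 such receptors in the tables, 0 passed the 20 CPM floor in T cells, 9 were under 1 CPM and 1, Gp6, was at 0, while 7 passed it in macrophages. Over all genes, 4655 of 27916 passed the floor in T cells. Fcgr3, an activating Fc gamma receptor, measured 2.10, 1.69, 1.23 and 1.80 CPM in T cells against 993 to 1358 CPM in macrophages. Fcer1a, the ligand-binding chain of the IgE receptor, was at most 0.121 CPM in T cells.

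Receptors that use Tyrobp were of a mixed kind. Of 17 in the tables, 3 passed the floor in T cells, 9 were under 1 CPM and 4 (Trem1, Trem3, Siglec15 and Clec5a) were at 0. The count of 3 lies near the share of all genes, 4655 of 27916, so nothing is read from it. The 3 were Klrk1, which in mouse also signals through Hcst, and Klrd1 and Klrc2, which pair as a receptor for Qa-1. Klrk1 measured 639, 696, 632 and 543 CPM and Klrd1 measured 821, 798, 578 and 331 CPM in T cells, and in macrophages they were at most 115.2 and 5.31 CPM. Klrc2 was lower in T cells, at 73.8, 71.1, 63.5 and 27.3 CPM, so the Klrd1 level does not stand for that pair. Klrc1, which is not on this list, measured 371, 273, 175 and 95.6 CPM there. Comparisons run in the order knockout over wild-type with anti-PD-L1, then untreated, and anti-PD-L1 over untreated in knockout, then in wild-type. Of the 3 receptors past the floor, 0, 2, 0 and 2 were at least 1.5-fold higher and 0 lower. Over all genes 0.902%, 7.67%, 3.01% and 11.1% were higher and 1.7%, 6.7%, 1.48% and 20.3% lower. Medians of the 3 receptors were 0.04, 0.80, 0.22 and 1.27, beside 0.09, -0.10, -0.01 and -0.18 for all genes.

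The other adaptors past the floor in T cells were Cd247, Hcst, Cd3d, Cd3e and Cd3g. Of 7 adaptor genes, a list that includes Fcer1g and Tyrobp, 6 passed the floor. Of these, 0, 1, 0 and 3 were higher and 1, 1, 0 and 0 lower in the same order of comparisons. The only gene lower in either genotype comparison was Fcer1g itself. Over all genes 0.902%, 7.67%, 3.01% and 11.1% were higher and 1.7%, 6.7%, 1.48% and 20.3% lower. The 3 higher for anti-PD-L1 over untreated in wild-type were Fcer1g at 1.26, Hcst at 1.61 and Cd3e at 0.64. Hcst, the adaptor DAP10, measured 347, 469, 232 and 154 CPM in T cells. Cd247 measured 126, 107, 113 and 89.8 CPM in T cells and 0 in macrophages of every library. Among downstream kinases, Zap70 measured 187, 187, 174 and 170 CPM in T cells, and Syk, the kinase that Fc receptor gamma chains engage in myeloid cells, measured 0, 0, 0.245 and 0.200 CPM there against 59.3 to 91.1 CPM in macrophages. Lat2 measured 54.0, 59.9, 33.3 and 32.7 CPM in T cells, with log2 folds of 0.70 in knockout and 0.87 in wild-type for anti-PD-L1 over untreated.

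The remaining lists are given by the same count, in the order knockout over wild-type with anti-PD-L1, the same without treatment, anti-PD-L1 over untreated in knockout and the same in wild-type. Of 15 kinases and phosphatases, 10 passed the floor, with 0, 3, 0 and 3 higher and 0, 1, 0 and 1 lower and medians of -0.04, 0.10, 0.01 and 0.15. Over all genes 0.902%, 7.67%, 3.01% and 11.1% were higher and 1.7%, 6.7%, 1.48% and 20.3% lower, the background for every count here. Ptpn6, the phosphatase SHP-1, had log2 folds of -0.92 for untreated knockout over wild-type and -0.81 for anti-PD-L1 in wild-type. Of 14 downstream genes, 9 passed, with 0, 2, 1 and 3 higher and 0 lower, led by Malt1, a protease and scaffold of antigen receptor signalling, at 1.12 for untreated knockout over wild-type and 1.34 for anti-PD-L1 in wild-type. Untreated knockout over wild-type and anti-PD-L1 in wild-type share the untreated wild-type library.

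Of 18 NK-type genes in the tables, 9 passed the floor, with 0, 3, 3 and 8 higher and 0 lower, against 0.902%, 7.67%, 3.01% and 11.1% of all genes higher. Gzma, a granzyme, had log2 folds of -0.16, 3.52, 0.99 and 4.67 in that order, with 30.1 CPM in untreated wild-type and 345 to 769 CPM in the other libraries. Of 12 T cell state genes, 11 passed, with 0, 2, 3 and 4 higher and 1, 2, 3 and 6 lower. Slamf6, a receptor of stem-like T cells, was lower in knockout than in wild-type at -0.94 with anti-PD-L1 and -0.67 without. The list medians were 0.01, 0.49, 0.51 and 0.87 for the NK-type genes and -0.11, 0.06, -0.32 and -0.61 for the T cell state genes.

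**Figure D5:**
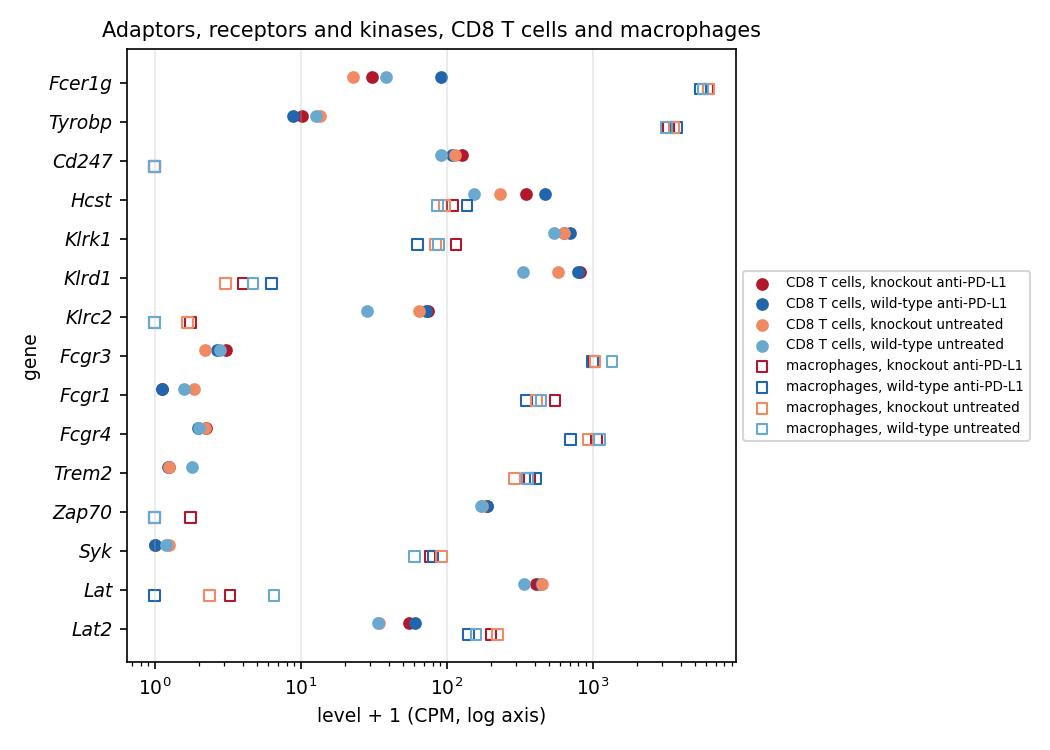
Level plus 1 in CPM, on a log axis, of 15 adaptors, receptors and kinases, with filled circles for CD8 T cells and open squares for macrophages, 1 per library. Cd247 and Zap70 lie on the T cell side, Fcgr3, Trem2 and Syk lie on the macrophage side, and Fcer1g and Tyrobp lie far higher in macrophages than in T cells.

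Across 12 profiles (CD8 T cells, macrophages and melanoma cells of 4 libraries) and 7748 genes, the genes whose log2 level was most like that of Fcer1g were Lst1, Themis2, Clec12a, Rbm47 and Cd93, with Pearson r between 0.992 and 0.998. For Tyrobp they were C1qb, Tgfbi, Pld4, Dnase1l1 and Aif1, with r between 0.993 and 0.995. The adaptors had r = 0.975 with each other, at rank 86 and rank 163. These profiles share libraries, and the correlation follows mainly the step between macrophages and the other classes.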

How the data were processed

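Droplet-based single-cell libraries (10x Chromium 3′ version 2, per the labels' protocols) of 4 groups were used, 1 library each. The values are raw UMI counts per barcode and gene, deposited by the authors. The submitters' processing notes name mm10 and, without saying for which data, HTSeq, HISAT2, bedtools, Bowtie2, DESeq2, Genrich 0.5 and Trim Galore 0.5.0. The counter, annotation and cell calling of these tables are not stated in the labels or file headers. Each table lists most barcodes again, with other counts; the second listing was used and the first tried as an alternative.

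Cells with at least 500 genes and at most 10% mitochondrial UMIs were kept. Doublets were not called; cells with T cell and macrophage genes were held apart. UMIs were summed per class and library and scaled to CPM, with Python 3.11.15, numpy 2.4.6 and scipy 1.17.1. Intervals are 95%: exact Poisson for CPM, Clopper-Pearson for shares, exact conditional binomial for ratios. TMM factors came from edgeR 4.0.16 in R 4.3.3. UMIs of 1 library come from 1 preparation, so intervals and limits cover counting error only, and a count of 0 was given a limit of 3 counts. Genes averaging 20 CPM or more in T cells were counted, and called when past 1.5-fold. The calculation was tested on simulated data.

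The members and gene lists were chosen with earlier results of these data known. Named are the members, list genes past the floor, the 5 genes most alike in level, and the 10 leading genes of T cells with at least 2 UMIs of a member; the lower and near-level genes given beside them were chosen after their values were seen. The splits by class II UMIs, by NK receptor and gamma-delta genes, by Tyrobp UMIs, and the use of Tyrobp as reference were also added after seeing the data. Some list genes are not reported here.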

Additional observations from a re-analysis of the deposited data

Results flagged for a closer look

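Hcst, the adaptor DAP10, had opposite directions in the genotype comparisons of CD8 T cells. Knockout over wild-type, its log2 fold was -0.43 (-0.50 to -0.36) with anti-PD-L1 and 0.59 (0.47 to 0.71) without treatment, a difference of -1.02. Cd3d, a CD3 chain used by the T cell gate, also had opposite directions, with log2 folds of -0.16 and 0.39 and a difference of -0.557. With 1 library per group neither difference was tested, and library and group cannot be told apart.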

How the results depend on the processing

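No paired analysis was possible because every group is 1 library and the labels carry no replicate numbers. Of 52 knockout over wild-type folds recomputed under other settings, 46 moved by less than their counting interval; of 52 anti-PD-L1 over untreated folds, 42 did. The cause of each change below was not tested. Log2 folds are listed first for Fcer1g. Weighting cells equally gave -1.33 for knockout over wild-type with anti-PD-L1, 0.82 for anti-PD-L1 in wild-type and -7.84 as the lowest T cell over macrophage value. With no NK or gamma-delta list UMI, Fcer1g gave 0.90 for anti-PD-L1 in wild-type, -8.41 and -6.30 as lowest and highest over macrophages, and 0.42 as the lowest excess over macrophage RNA. With no UMI of the NK receptor and gamma-delta constant genes it gave -1.26 for untreated knockout over wild-type, -8.69, -6.18 and 0.37. With no class II UMI it gave -1.30 for knockout over wild-type with anti-PD-L1, 0.79 for anti-PD-L1 in knockout and -6.06 as highest over macrophages, and with no reference-list UMI -6.09, where no excess can be computed.

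Tyrobp, with few UMIs, moved more. With 0 UMIs of the gate's macrophage genes it gave -0.51 for untreated knockout over wild-type and 0.18 for anti-PD-L1 in knockout. The first barcode listing gave -0.99 for anti-PD-L1 in knockout. With a CD8 and no Cd4 UMI, it gave -0.016 for anti-PD-L1 in wild-type and -8.50 as highest over macrophages. With no NK or gamma-delta list UMI it gave -0.31 for knockout over wild-type with anti-PD-L1, -0.0068 for anti-PD-L1 in wild-type and -8.57 over macrophages. With no reference-list UMI it gave -1.40, 1.20 and -10.05. With no class II UMI, anti-PD-L1 gave 1.49 in knockout and 0.80 in wild-type, which turned round, with -9.79 over macrophages and an excess of 0.20.

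Without Apoe and Ctss the excess in untreated knockout turned from under to over 1 for Fcer1g (1.14) and Tyrobp (1.14), as did Tyrobp in untreated wild-type (1.33), and the lowest Tyrobp excess was 0.65. Tyrobp alone as the reference gave 1.00 for Fcer1g. Klre1 in knockout with anti-PD-L1 (-0.16 with no NK or gamma-delta UMI) and Gzmf in untreated wild-type (-0.22 with no class II UMI) also turned round. Thinning to 2600 UMIs gave shares of 5.26%, 9.42%, 4.03% and 5.42% for Fcer1g and 1.79%, 1.85% and 1.98% for Tyrobp. At a floor of 50 CPM, genes past 1.5-fold numbered 6 higher and 36 lower, 168 and 147, 72 and 30, and 270 and 529 over the 4 comparisons; TMM factors gave 26 higher with anti-PD-L1, 201 lower without treatment, and 536 lower for anti-PD-L1 in wild-type. Depth limits Tyrobp, with 59 to 103 UMIs per library.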
